A study of Mus musculus with 6 samples.

Results

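Messenger RNA of 10 genes that make or use arginine, creatine and polyamines was compared in mouse kidney with and without D-serine. The genes were Ass1, Asl and Arg2 (arginine), Gatm and Gamt (creatine), and Amd1, Srm, Sms, Sat1 and Azin1 (polyamines). They were taken by symbol from a table of 24346 genes, and all 10 symbols were found. The data come from 6 RNA-seq libraries of kidney from mice that had 1 kidney removed (unilateral nephrectomy, UNX), an operation after which the remaining kidney grows. Both groups ate a serine-free diet for 1 week, were then operated on, and were killed 2 days later. In that week vehicle mice (3 libraries) drank water without D-serine, the mirror image of L-serine, and D-serine mice (3 libraries) drank water with 0.1% of it. Sham-operated mice are not analysed here. The labels give no strain, sex or age, and do not say that each library is 1 animal, so the spread between libraries may be partly technical. Levels are in FPKM, a fragment count scaled to transcript length and to the library's total, so levels of different genes are compared per length.

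Arginine links the 3 groups of genes. The proximal tubule of the kidney takes up citrulline from blood, and Ass1 and Asl turn it into arginine for the rest of the body. Gatm moves the amidino group of arginine to glycine, and Gamt methylates the product to creatine. Arginase splits arginine into urea and ornithine. Ornithine decarboxylase, encoded by Odc1, turns ornithine into putrescine, and Srm and Sms add aminopropyl groups supplied by Amd1 to give spermidine and spermine. Sat1 starts their breakdown, and Azin1 protects ornithine decarboxylase from the antizyme that sends it to the proteasome.

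None of the 10 genes passed the test for a difference with D-serine. Limma called 0 of 10 at an adjusted p of 0.05, against 9 of 11737 genes tested (0.0767%). At an unadjusted p under 0.05 there were 2 of the 10, Gamt higher and Azin1 lower, where 27.7% of all tested genes passed. Groups of libraries did not overlap for Gamt, with D-serine higher (1 of 10, against 16.5% of tested genes), and for Azin1, with D-serine lower (1 of 10, against 19.4%). Each of these counts among the 10 genes is no more than the share over all genes would give. The log2 difference was above 0 for 5 genes and below 0 for 5, with a median of 0.0052, against -0.0078 over all tested genes. All 10 passed the minimum mean of 1 FPKM, but Amd1 did so through 1 library alone.

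The mean levels over the 6 libraries ran from 340 FPKM for Sat1 to 1.19 FPKM for Arg2. Sat1 (313 to 382 FPKM), Gatm (109 to 369 FPKM) and Ass1 (180 to 230 FPKM) came first, and the range of Gatm overlapped both of the others. Asl (100.1 to 152 FPKM) lay below Ass1 in all libraries, and Gamt (41.6 to 63.3 FPKM) below Asl. Azin1 (19.4 to 32.6 FPKM), Sms (19.2 to 22.7 FPKM) and Srm (14.7 to 22.8 FPKM) overlapped with each other. The order holds for the rows as deposited, and the rows of Ass1 and Amd1 each have a near-identical copy that is described with them.

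**Figure D1:**
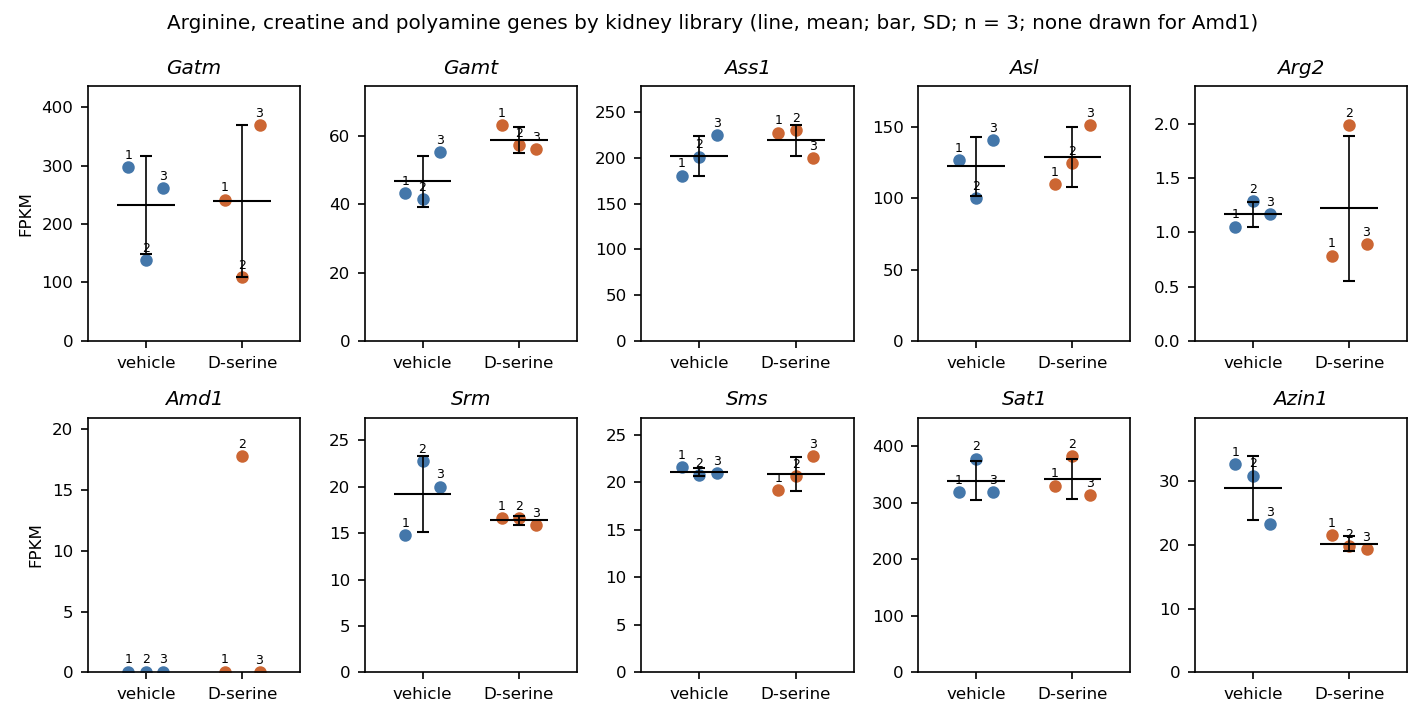
Level in FPKM (vertical axes, linear, from 0) of each of the 10 genes in the 3 vehicle and 3 D-serine libraries, numbered by replicate; lines are group means and bars are SD, left out for Amd1. Gamt and Azin1 have groups that do not overlap, Gatm spreads from 109 to 369 FPKM within the groups, and Amd1 is near 0 in 5 libraries and at 17.8 FPKM in D-serine replicate 2.

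Ass1, argininosuccinate synthase, joins citrulline to aspartate. Its row stood at 180, 201 and 224 FPKM in the vehicle libraries, against 227, 230 and 199.7 FPKM in those given D-serine. The groups overlapped, with a log2 difference of 0.12 ± 0.11 (SE, n = 3 each, limma adjusted p = 0.51, 95% interval -0.15 to 0.39), and 0.0060 after removal of a trend with the GC content and length of transcripts. It was 0.041 without vehicle replicate 1, 0.20 without vehicle replicate 3 and 0.18 without D-serine replicate 3, and between these values without each of the others. This row held the smaller part of the signal. Gm5424, annotated as a processed pseudogene on chromosome 10 (62071123 to 62072362, mm10), matched the 1239-base coding sequence of Ass1 (chromosome 2, 31470207 to 31520672) along its whole length, with 6 mismatches (99.5% identity). The pair is shown because the row of Gm5424 was higher than that of Ass1 in each library. Within coding bases 369 to 429 of Ass1, counted from the start codon, the capitals mark the 2 bases that differ, and no other stretch of 61 bases held more.
Ass1: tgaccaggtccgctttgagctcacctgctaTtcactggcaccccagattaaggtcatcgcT
Gm5424: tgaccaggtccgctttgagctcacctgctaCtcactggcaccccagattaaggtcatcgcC

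Gm5424, chosen after its values were seen, was listed at 1358, 1046 and 1443 FPKM in the vehicle libraries, against 867, 602 and 1234 FPKM in those given D-serine. The Ass1 row held 11.7, 16.1 and 13.5% of the summed level of the pair with vehicle and 20.8, 27.6 and 13.9% with D-serine. The sum itself was 1538, 1248 and 1667 FPKM in the vehicle libraries, against 1095, 832 and 1434 FPKM in those given D-serine. D-serine replicates 1 and 2 lay below every vehicle library, and replicate 3 lay among them. The log2 difference of the sum was -0.43 ± 0.21 (limma adjusted p = 0.22, 95% interval -0.92 to 0.054), opposite in sign to that of the Ass1 row and not past the threshold either. It was -0.23 without D-serine replicate 2. The sources used here do not give how reads were divided between the gene and its copy, so neither row alone measures Ass1.

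Asl, argininosuccinate lyase, releases arginine in the next step. It was at 127, 100.1 and 141 FPKM in the vehicle libraries, against 110, 125 and 152 FPKM in those given D-serine. The groups overlapped throughout (log2 difference 0.072 ± 0.17, limma adjusted p = 0.80, 95% interval -0.32 to 0.46). No other annotated gene matched the Asl transcript over 200 bases at 95% identity. Arg2, the mitochondrial arginase, was the lowest of the 10 genes, at 1.05, 1.28 and 1.16 FPKM in the vehicle libraries, against 0.785, 1.99 and 0.893 FPKM in those given D-serine. These levels stand for roughly 8.84 to 20.9 fragments per library at the estimated depth, so counting error is large. D-serine replicate 2 was the highest of the 6 libraries, and the other D-serine libraries were the lowest (log2 difference -0.0020 ± 0.22, 95% interval -0.52 to 0.51). Arg2 shares 285 exon bases with Vti1b on the opposite strand, and the sources used here do not give whether strand was used in the counting. Arg1, the liver arginase, did not exceed 0.374 FPKM.

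Gatm, glycine amidinotransferase, carries out the first step of creatine synthesis in the proximal tubule. It lies on chromosome 2 (122594467 to 122611303) and was at 297, 139 and 262 FPKM in the vehicle libraries, against 241, 109 and 369 FPKM in those given D-serine. Replicate 2 of each group was its lowest library, and the D-serine libraries spanned the whole vehicle range. The log2 difference was -0.051 ± 0.46 (limma adjusted p = 0.95), with a 95% interval from -1.13 to 1.03, so that a change of about 2-fold in either direction was not excluded. The within-group SD of Gatm was 0.75 on the log2 scale, higher than that of 98.6% of tested genes. Its sign depended on the libraries used, at 0.43 without D-serine replicate 2 and -0.44 without D-serine replicate 3.

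Gamt, guanidinoacetate methyltransferase, completes creatine. It was at 43.3, 41.6 and 55.3 FPKM in the vehicle libraries, against 63.3, 57.3 and 56.3 FPKM in those given D-serine. All D-serine libraries were above all vehicle libraries, by less than 1 FPKM between the closest pair. The log2 difference was 0.34 ± 0.13 (95% interval 0.038 to 0.64, limma adjusted p = 0.15), higher in 3 of 3 D-serine libraries but not past the threshold. Gamt has a short, GC-rich longest transcript (988 bases, 59.7% GC). Over all tested genes, the median log2 difference was 0.12 in the 2827 genes of highest GC content (54.5% or more) and -0.11 in the 2828 of lowest (45.0% or less). When the trend with both was removed, the log2 difference of Gamt was 0.054 (adjusted p = 0.78). Whether this trend is technical or biological was not tested.

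Amd1, adenosylmethionine decarboxylase, supplies the aminopropyl groups for spermidine and spermine. It lies on chromosome 10 (40287458 to 40302186). Its row read 0.0590, 0.0481 and 0.0484 FPKM in the vehicle libraries, against 0.0481, 17.8 and 0.0434 FPKM in those given D-serine. At the estimated depth this is about 1.08 to 1.67 fragments in 5 libraries and 420 fragments in D-serine replicate 2. Amd2, a gene with a single annotated transcript elsewhere on chromosome 10 (35708675 to 35711892), showed the opposite: 22.5, 23.4 and 19.6 FPKM in the vehicle libraries, against 20.8, 0.126 and 19.6 FPKM in those given D-serine. The longest transcripts of the pair align over 3218 positions with 14 mismatches and 14 gapped positions (99.1% identity). Their 1005-base coding sequences differ at 1 base, G796C (Amd1 base, position from the A of the start codon, Amd2 base), in capitals in coding bases 766 to 826:
Amd1: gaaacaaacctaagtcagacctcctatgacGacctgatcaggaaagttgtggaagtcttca
Amd2: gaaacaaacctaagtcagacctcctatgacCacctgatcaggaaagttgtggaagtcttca

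The summed level of Amd1 and Amd2 was 22.6, 23.4 and 19.6 FPKM in the vehicle libraries, against 20.9, 17.9 and 19.6 FPKM in those given D-serine. The row of Amd1 held 0.205 to 0.261% of the sum in 5 libraries and 99.3% in D-serine replicate 2. The sum had a log2 difference of -0.16 ± 0.11 (limma adjusted p = 0.36, 95% interval -0.41 to 0.091) and overlapping groups. Taken by itself, the row of Amd1 gave a log2 difference of 1.38 ± 1.04 (adjusted p = 0.41), the largest of the 10 genes, and -0.0080 without D-serine replicate 2. The large value therefore came from 1 library, in which the signal stood in one of the near-identical rows rather than the other, and neither row alone measures the gene.

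**Figure D2:**
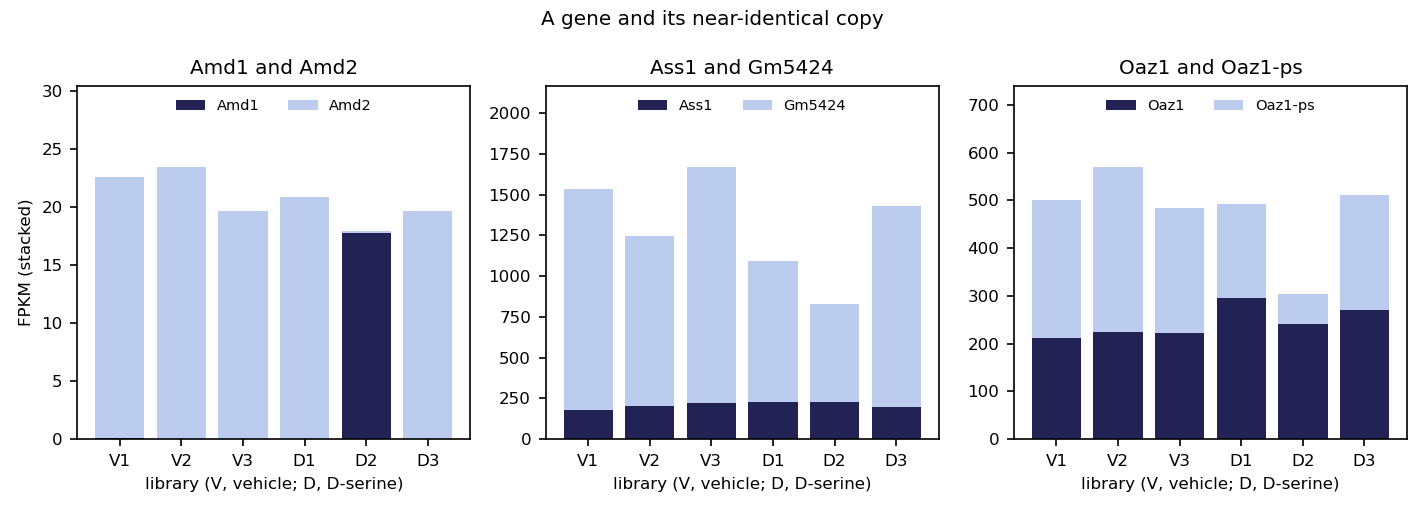
FPKM (vertical axes, linear, from 0) of a gene (dark, below) and its near-identical copy (light, stacked above) in the 3 vehicle (V) and 3 D-serine (D) libraries, for Amd1 with Amd2, Ass1 with Gm5424, and Oaz1 with Oaz1-ps. The Amd1 signal moves from one row to the other in D2 while the sum stays between 17.9 and 23.4 FPKM, and the dark share of each pair is largest in D2.

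Srm, spermidine synthase, was at 14.7, 22.8 and 20.0 FPKM in the vehicle libraries, against 16.6, 16.6 and 15.9 FPKM in those given D-serine. The D-serine libraries were close together and lay inside the vehicle range (log2 difference -0.20 ± 0.15, limma adjusted p = 0.43, 95% interval -0.56 to 0.16). Srm has a transcript of 59.8% GC, and without the length and GC trend its log2 difference was -0.43 (adjusted p = 0.14). Without vehicle replicate 1 it was -0.36, and without vehicle replicate 2 it was -0.067. Sms, spermine synthase, was at 21.6, 20.7 and 20.96 FPKM in the vehicle libraries, against 19.2, 20.7 and 22.7 FPKM in those given D-serine. It was the steadiest of the 10 genes, with a within-group SD of 0.086 on the log2 scale (log2 difference -0.019 ± 0.095, limma adjusted p = 0.91). The 95% interval for Sms ran from -0.24 to 0.20, so a difference of more than that size lay outside it.

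Sat1, spermidine/spermine acetyltransferase, marks polyamines for breakdown or export and is itself induced by them, mainly after transcription. It was at 319, 378 and 319 FPKM in the vehicle libraries, against 330, 382 and 313 FPKM in those given D-serine. Replicate 2 was the highest library of each group, and the group means were 339 ± 34.2 and 342 ± 35.8 FPKM (SD, n = 3 each). The log2 difference of Sat1 was 0.012 ± 0.12 (limma adjusted p = 0.96, 95% interval -0.26 to 0.29). Annotated genes with at least 95% identity cover 38.6% of the Sat1 transcript, against 29.6% for Sms and 0% for Srm.

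Azin1, antizyme inhibitor 1, resembles ornithine decarboxylase but has no decarboxylase activity, and it binds antizyme in its place. Of the 10 genes it had the smallest p. It lies on chromosome 15 (38487427 to 38519266) and was at 32.6, 30.8 and 23.2 FPKM in the vehicle libraries, against 21.5, 19.8 and 19.4 FPKM in those given D-serine. All D-serine libraries were below all vehicle libraries, but vehicle replicate 3 was closer to the D-serine libraries than to the other two. The log2 difference was -0.48 ± 0.14 (95% interval -0.81 to -0.16), lower in 3 of 3 D-serine libraries, with an unadjusted p of 0.0094 and a limma adjusted p of 0.095. It ranked 1152 among the 11737 genes by p. The adjusted p stayed between 0.079 and 0.28 in the 18 alternatives, and the log2 difference between -0.63 and -0.34. Azin1 has a long, AT-rich transcript (4871 bases, 39.3% GC), and -0.34 was its value with the length and GC trend removed. An annotated gene on the opposite strand, Gm49077, matches 359 bases of its transcript.

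**Figure D3:**
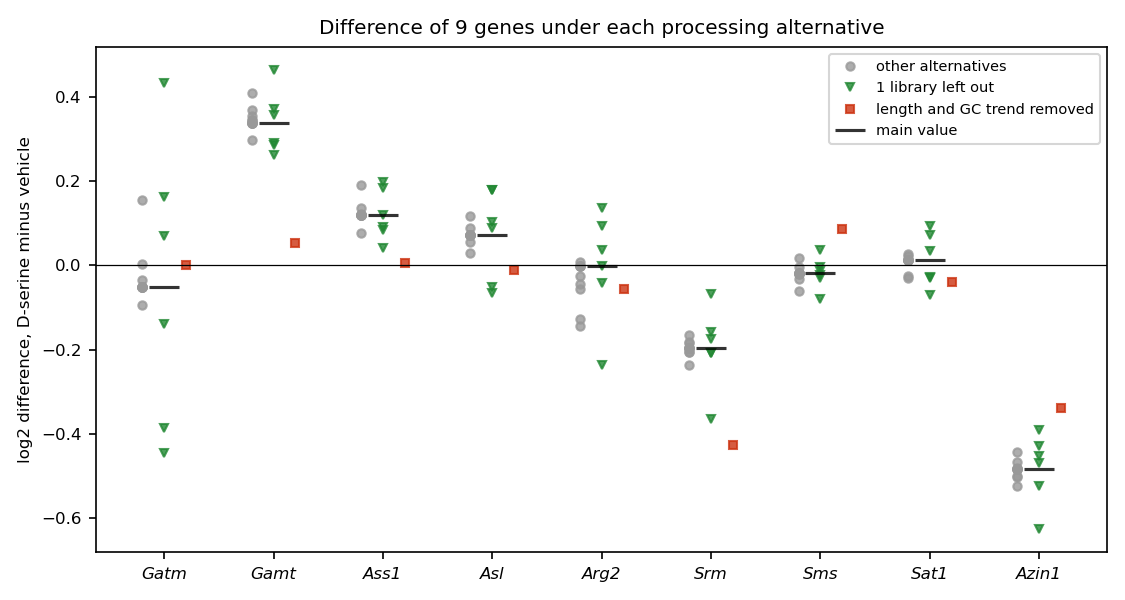
Log2 difference, D-serine minus vehicle (vertical axis), of 9 of the genes in the main analysis (black line), with 1 library left out (triangles), with the length and GC trend removed (squares) and under the other alternatives (circles); Amd1 is left out because of its copy. Azin1 stays between -0.63 and -0.34, Gamt is at 0.054 with the trend removed, and Gatm runs from -0.44 to 0.43 as libraries are left out.

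The other genes of the 3 pathways came from a list of 53, of which 36 reached a mean of 1 FPKM. None of the 36 passed in limma (smallest adjusted p = 0.071), while 4 were higher and 7 lower at an unadjusted p under 0.05, where 27.7% of all tested genes passed. Groups did not overlap for 8 with D-serine higher and 10 with D-serine lower. The share of all tested genes without overlap, given above for each direction, was 16.5% and 19.4%. The median log2 difference of the 36 was -0.013. By pathway, 9 of 15 arginine genes, 2 of 4 creatine genes and 6 of 17 polyamine genes had a log2 difference above 0.

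Odc1, ornithine decarboxylase, is the rate-limiting enzyme of polyamine synthesis, and androgens induce it in mouse kidney. It was at 1157, 1818 and 1017 FPKM in the vehicle libraries, against 770, 384 and 796 FPKM in those given D-serine, far above Azin1 in every library. All D-serine libraries were lower, with a log2 difference of -1.06 ± 0.32 (95% interval -1.82 to -0.30, limma adjusted p = 0.10), and -0.72 without D-serine replicate 2. Other annotated genes matched 62.8% of its transcript at 95% identity or more. Oaz1, the antizyme that Azin1 binds, was at 211, 225 and 222 FPKM in the vehicle libraries, against 295, 241 and 270 FPKM in those given D-serine (log2 difference 0.29 ± 0.10, limma adjusted p = 0.13). Its processed pseudogene Oaz1-ps on chromosome 17 (17345456 to 17346140), named after its values were seen, went the other way. Oaz1-ps was at 290, 344 and 262 FPKM in the vehicle libraries, against 197, 63.1 and 241 FPKM in those given D-serine. The sum of Oaz1 and Oaz1-ps had overlapping groups, 518 ± 44.8 and 436 ± 115 FPKM (log2 difference -0.28 ± 0.20, limma adjusted p = 0.38), and -0.043 without D-serine replicate 2. The log2 difference of this sum was opposite in sign to that of the Oaz1 row. The longest of 7 annotated Oaz1 transcripts has 2526 bases, and Oaz1-ps has 685 bases. The sum of FPKM is therefore not a count of the fragments of the pair, and its direction may depend on the lengths used. The sources used here do not give which Oaz1 length entered the FPKM. Atp13a3, an endosomal ATPase of polyamine transport, was at 16.4 ± 1.06 and 11.2 ± 1.39 FPKM (log2 difference -0.51, limma adjusted p = 0.071).

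Of the arginine genes, Slc3a1, the heavy chain of the renal cystine and dibasic amino acid transporter, was at 173, 146 and 129 FPKM in the vehicle libraries, against 71.1, 33.7 and 96.4 FPKM in those given D-serine. The groups of Slc3a1 did not overlap (log2 difference -1.25 ± 0.35, limma adjusted p = 0.091), and the value was -0.83 without D-serine replicate 2. Slc3a1 shares 601 exon bases with Prepl on the opposite strand, so part of its reads could belong to that gene. Slc7a9, the light chain of the cystine and dibasic amino acid transporter, was chosen after its values were seen. It had overlapping groups at 64.1 ± 11.9 and 66.2 ± 16.2 FPKM. Oat, ornithine aminotransferase, was at 55.7 ± 2.46 with vehicle and 68.7 ± 5.29 FPKM with D-serine (log2 difference 0.30, limma adjusted p = 0.11). Of the creatine genes, Ckmt1, the mitochondrial creatine kinase of many epithelia, was at 69.9 ± 8.08 and 94.8 ± 12.5 FPKM (log2 difference 0.43, adjusted p = 0.10). Slc16a12, a creatine exporter of the monocarboxylate transporter family, was at 35.1 ± 1.80 and 27.1 ± 3.51 FPKM (log2 difference -0.37, adjusted p = 0.11). The creatine transporter Slc6a8 (49.5 ± 2.81 and 49.1 ± 4.77 FPKM) and the brain-type creatine kinase Ckb (77.3 ± 7.18 and 82.6 ± 17.5 FPKM) had overlapping groups.

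**Figure D4:**
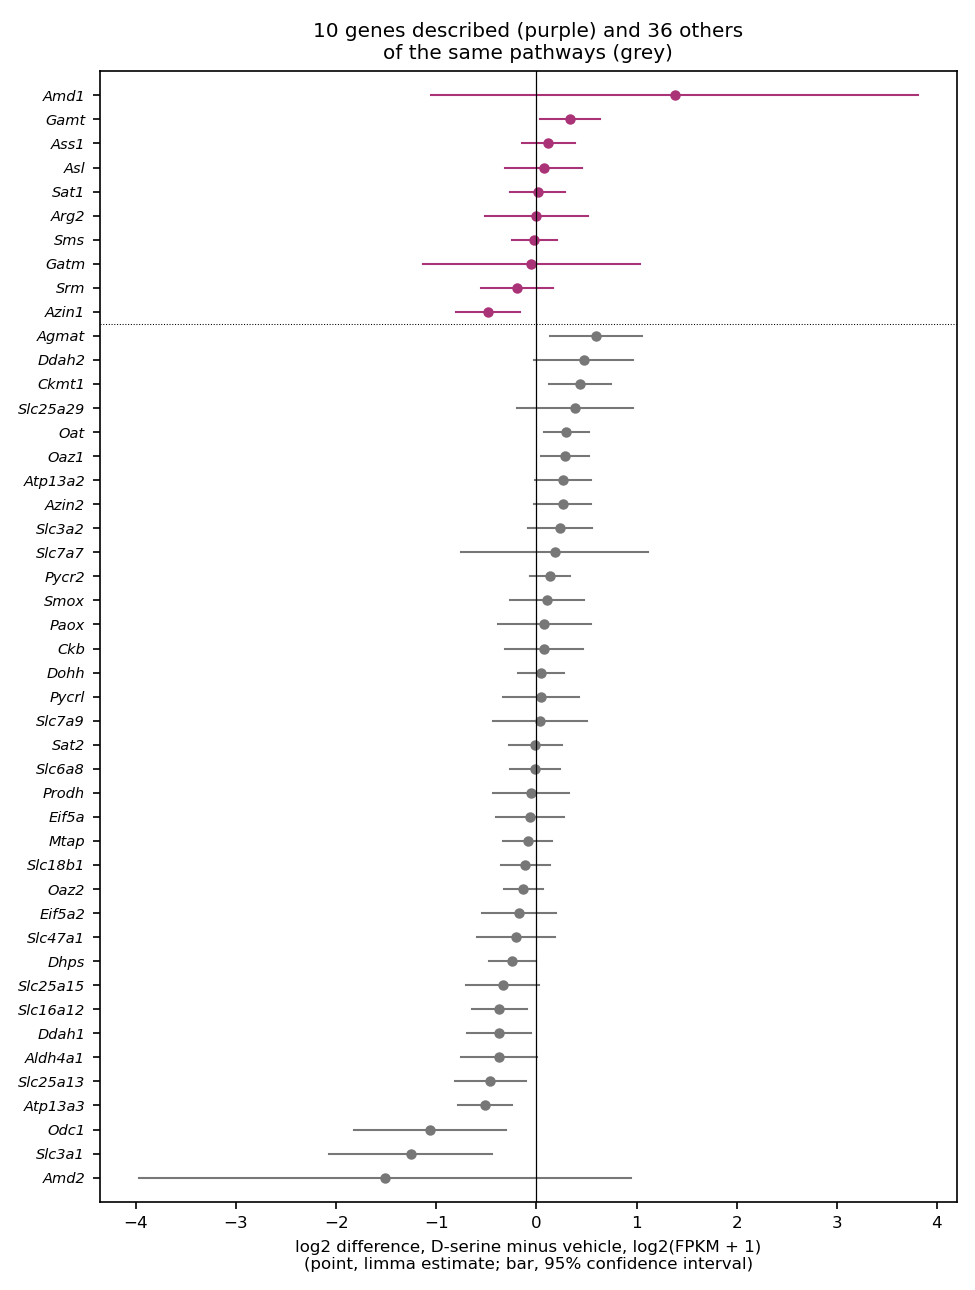
Log2 difference, D-serine minus vehicle, on the log2(FPKM + 1) scale (horizontal axis), with 95% confidence intervals from limma, for the 10 genes described (purple) and the 36 others of the same pathways (grey). Of the 10, only the intervals of Gamt and Azin1 leave out 0 before adjustment, and those of Amd1 and Gatm are wide. That of Amd2, among the 36, is wide as well, and none of the 46 genes passed an adjusted p of 0.05.

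The libraries held an estimated 7370000 to 8840000 mapped fragments, and no totals are given. The estimate takes their lowest values to stand for 1 fragment each. Marker lists of cell types were also read. Of the markers, 0 of 12 of the first proximal tubule segments (S1 and S2) and 0 of 9 of the last segment (S3) were at 0 in all libraries. Most other lists also had no member at 0 throughout, so this does not test the tissue label. The summed level of the S1 and S2 markers was 3281 to 3825 FPKM with vehicle and 3015 to 3438 FPKM with D-serine, and 10 of 12 had a log2 difference below 0. Slc34a1 made up most of that sum, at 2206 to 2590 and 2026 to 2277 FPKM. Some smaller members varied severalfold within a group, while Slc22a6 did not (514 to 584 and 435 to 455 FPKM). In vehicle replicates 1, 2 and 3, Slc5a2 stood at 55.9, 11.1 and 56.6 FPKM and Slc5a12 at 40.2, 8.99 and 38.8 FPKM. Both were lowest in vehicle replicate 2, as was Gatm in that group. In the D-serine group both were lowest in replicate 1, but Gatm in replicate 2. The S3 markers summed to 734 to 915 and 292 to 539 FPKM, and 8 of 8 tested were below 0, beside the lower values of Odc1 and Slc3a1. Slc7a13 gave much of the S3 sum, at 359 to 479 and 105 to 210 FPKM. Groups did not overlap for Slc7a13, Slc22a7, Aadat and Slco1a6. They overlapped for Slc5a1 (log2 difference -0.021 ± 0.18), Slc22a13, Slc22a19 and Cyp7b1. Of the androgen-responsive genes, a list that holds Odc1 and shares Cyp7b1 with the S3 list, 7 of 7 tested were below 0. The other lists, apart from that of the thick ascending limb, had most or all of their log2 differences above 0. The 7 principal cell markers of the collecting duct (7 of 7 above 0) summed to 457 to 614 FPKM with vehicle and 676 to 1015 FPKM with D-serine. Markers of the distal convoluted and connecting tubule (6 of 6 above 0) summed to 584 to 758 and 764 to 899 FPKM, and those of intercalated cells (7 of 7) to 230 to 274 and 269 to 350.03 FPKM. Fibroblast, pericyte and smooth muscle markers (7 of 7) summed to 21.9 to 31.3 and 35.3 to 64.7 FPKM. Endothelial markers (5 of 6 tested above 0) summed to 18.9 to 37.3 and 34.4 to 46.3 FPKM, and leukocyte markers (3 of 4 tested) to 24.7 to 45.6 and 29.5 to 51.3 FPKM, with 1 of the latter at 0 in all libraries. Those of the thick ascending limb (4 of 6 below 0) summed to 1564 to 1798 and 1026 to 1581 FPKM. The summed level of 7 markers of dividing cells was 9.44 to 13.6 FPKM with vehicle and 48.8 to 169 FPKM with D-serine. None of these list members passed limma singly, and their part in the results on arginine, creatine and polyamine genes was not tested. In whole kidney, fewer cells of a type and less RNA per cell cannot be told apart.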

How the data were processed

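For each sample the authors deposited FPKM values by gene. TopHat2 2.0.13, Bowtie2 2.2.3, SAMtools 0.1.19, Cufflinks 2.2.1 and mm10 are named in the submitters' processing notes, per the labels. The sources used here do not give the annotation, the strand setting or the treatment of reads with several matches. FPKM are not counts, so no count test was run. Limma 3.58.1 in R 4.3.3 (lmFit, eBayes with a mean-variance trend) compared the 2 groups of 3 on log2(FPKM + 1), two-sided, over the 11737 genes whose mean reached 1 FPKM, with Benjamini-Hochberg adjustment at 0.05. Fold changes on that scale understate low genes. An exact permutation test of 3 against 3 cannot go below 0.10 and was not used. The script was tested on simulated data.

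Positions, transcripts, GC content and copies came from GENCODE M21 (mm10), matched by symbol for 11309 tested genes (96.4%). Copies were sought with blastn 2.17.0 (95% identity, 200 bases or more), and coding sequences were taken as the longest reading frame. Depth was estimated from values below 0.2 FPKM of genes with 1 transcript of at least 2500 bases. Each value was read as 1 fragment, and the most frequent result was taken. Fragments of Amd1 and Arg2 were scaled by the longest annotated transcript. The 10 genes and all lists were chosen with earlier results of these data known. Named pathway genes were Odc1, Oaz1, Oat, Slc6a8, Ckb, any called gene and the 2 of smallest p per pathway. Arg1, Cps1, Otc, Nos1, Nos2, Nos3, Slc7a9, the copies and the overlapping genes fall outside that rule and were chosen after their values were seen. The labels describe no pairing by replicate number, and the main test did not pair the libraries.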

Additional observations from a re-analysis of the deposited data

How the results depend on the processing

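In each of 18 alternatives limma called 0 of the 10 genes and 0 of the other pathway genes, among those it tested. The number tested changed with the minimum level. The count over all genes was 9, and 171 and 221 with a pseudocount of 0.1 and 0.01 FPKM, 132 with a minimum of 5 FPKM, 15 with median-of-ratios scaling, 27 with a common FPKM sum without Kap, 269 with weighted libraries, 332 without small RNA genes, and 2 to 437 with 1 library left out (4, 3 and 2 without vehicle replicates 1, 2 and 3, and 24, 10 and 437 without D-serine replicates 1, 2 and 3). The replicate number as a block gave 2, and changed no call among the 10 genes. Same-numbered libraries did not deviate together (correlations -0.070, 0.0030 and 0.067), and the labels describe no pairing. With 3 libraries per group these correlations cannot exclude one. Gamt, Srm, Azin1 and the row of Ass1 by itself had the same sign in all 18. Of the others, Gatm was 0.0030 with quantile normalization, 0.16 with weighted libraries, 0.0010 without the length and GC trend, and -0.44 to 0.43 with 1 library left out. Asl was -0.010 with that trend removed and -0.066 to 0.18 without 1 library. Arg2 was 0.0080 with median-of-ratios scaling and -0.24 to 0.14 without 1 library, and Amd1 -0.0080 to 2.08. Sms was 0.017 with quantile normalization, 0.086 with the trend removed and -0.080 to 0.037 without 1 library. Sat1 was -0.030 with a common sum without Kap, -0.026 with weighted libraries, -0.039 with the trend removed and -0.070 to 0.094 without 1 library. Slc6a8 was 0.0010 with median-of-ratios scaling, 0.056 with quantile normalization, 0.032 with weighted libraries and -0.070 to 0.065 without 1 library. Ckb was -0.10 with the trend removed and -0.069 to 0.24 without 1 library. The cause was not tested. Arg2 and Amd1 have no value with a minimum of 5 FPKM. Trend removal and the sums with copies were chosen after seeing the data. The scaling alternatives moved the median of all genes by less than 0.1.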

Other observations

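The 3 pairs of a gene and its near-identical copy, chosen after their values were seen, shared a feature that the lists did not use. Shares were computed for these 3 pairs only, and not for other genes with matches, such as Odc1, Sat1 and Sms. In each pair the parent gene held its largest share in D-serine replicate 2: 99.3% for Amd1, 27.6% for Ass1 and 79.2% for Oaz1. In the other 5 libraries the share was 0.205 to 0.261% for Amd1, 11.7 to 20.8% for Ass1 and 39.5 to 59.9% for Oaz1. These are shares of summed FPKM, not of fragments. The longest transcripts were 3204 bases for Amd1 and 3218 for Amd2, but 1696 for Ass1 and 1240 for Gm5424. Those of Oaz1 and Oaz1-ps were 2526 and 685 bases. Matches to other annotated genes covered 99.8% of the longest Amd1 transcript, 73.1% of that of Ass1 and 10.3% of that of Oaz1. All 685 bases of Oaz1-ps matched an Oaz1 transcript at 99.7% identity, so the 10.3% holds only for the longest Oaz1 transcript. D-serine replicate 2 did not stand apart in how many genes in total lay over 4-fold, on the log2(FPKM + 1) scale, beyond all other libraries. There were 15 such genes in D-serine replicate 2, 15 in each of vehicle replicates 1 and 2, and 6 to 8 in the others. Of the genes in D-serine replicate 2, 5 lay below all other libraries, where each other library had 1 to 3. The other 10 lay above, against 13 in each of vehicle replicates 1 and 2 and 5 to 6 in the rest.

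Enzymes of the upper urea cycle were near the floor of these libraries. Cps1 did not exceed 0.0672 FPKM, and Otc was listed at 0 in all 6 libraries. Of the nitric oxide synthases, which use arginine, Nos1 was at 0.309 to 0.386 FPKM with vehicle and 0.437 to 0.787 FPKM with D-serine, Nos3 did not exceed 1.23 FPKM and Nos2 did not exceed 0.127 FPKM. None of the 5 reached the minimum for the test.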
